A study of Mus musculus with 9 samples.

Results

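The 10 genes described here carry iron into mouse cells of the macrophage lineage, store it, release it from storage, export it or sense it. Tfrc, Slc11a1, Slc11a2 and Slc39a14 serve uptake, Fth1, Ftl1 and Ncoa4 serve storage and release from storage, Slc40a1 serves export, and Ireb2 and Aco1 are the iron regulatory proteins. They were picked by symbol from the 23282 gene rows of 9 RNA sequencing libraries, and each symbol matched 1 row. The filter on low values asked for 10 adjusted reads or more in 3 libraries or more, and over the 9 libraries 11193 rows passed it, all 10 iron genes among them.

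RNA came from RAW264.7, a macrophage line of BALB/c mice that turns into osteoclast-like cells under RANKL, the cytokine that starts osteoclast differentiation. By the labels the cells were at passage 30 and were treated for 4 days. The negative control received RANKL alone at 50 ng/mL. Surface protein-treated cells received RANKL and surface proteins extracted from the bacterium Propionibacterium freudenreichii MJ2 at 10 µg/mL. The third group received heat-killed MJ2 at 10000000 cells/mL, and the labels do not say library by library that RANKL was given as well. Each group has 3 libraries of a single cell line. Nothing states that the libraries of a group came from separate cultures, so p-values measure only the spread between these libraries, which may be technical.

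Macrophages take up iron bound to transferrin, free iron and the iron of engulfed red cells, keep it in ferritin, and return it to the blood through ferroportin. Much of this is set after transcription: iron regulatory proteins bind a short RNA hairpin, the iron-responsive element, when iron is scarce. Bound near the start of an mRNA they hold back its translation, and bound in the 3′ UTR of the transferrin receptor mRNA they protect it from decay. RNA levels therefore show only a share of this control, and protein was not measured in these libraries.

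The hairpins that name this control were located in the transcripts of the iron genes, because they separate the genes into those with a hairpin at the start, at the end, and without one of this form. The form searched was C, 5 stem bases, the loop CAGTGN and 5 bases that pair with the stem (G with U allowed), on the sense strand. Each sequence below is from GENCODE M21 transcripts on GRCm38 (mm10), 5′ to 3′, with the loop in capitals. The 4 hairpins of Tfrc lie in the 3′ UTR of Tfrc-201, on the plus strand at chr16:32631219-32631248, chr16:32631598-32631627, chr16:32631663-32631692 and chr16:32631710-32631739. Those of Fth1-201 (chr19:9982732-9982761, plus strand), Ftl1-201 (chr7:45459778-45459807, minus strand) and Slc40a1-201 (chr1:45925464-45925493, minus strand) lie in the 5′ UTR.
Tfrc hairpin 1: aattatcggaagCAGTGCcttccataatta
Tfrc hairpin 2: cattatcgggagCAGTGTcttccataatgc
Tfrc hairpin 3: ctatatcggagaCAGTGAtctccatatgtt
Tfrc hairpin 4: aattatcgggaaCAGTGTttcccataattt
Fth1 hairpin: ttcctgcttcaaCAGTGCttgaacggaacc
Ftl1 hairpin: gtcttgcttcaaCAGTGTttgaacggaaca
Slc40a1 hairpin: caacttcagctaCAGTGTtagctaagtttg

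The loop began 98 bases from the start of Fth1-201, 89 bases from that of Ftl1-201 and 101 bases from that of Slc40a1-201. Within the first 250 bases, 20 of 21793 transcripts (1 per gene, 0.0918%) held a hairpin of this form. Those of Fth1, Ftl1 and Slc40a1 are among these 20. Of 2788 3′ UTRs cut to the 2458 bases of that of Tfrc, 30 (1.08%) held at least 1 and 1 (0.0359%) held at least 4. The 1 with at least 4 is that of Tfrc itself, so these shares include the iron genes. Among the other genes of iron handling, Alas2 (the erythroid heme synthesis enzyme) held 1 in the 5′ UTR. No match was found in the transcripts searched of the other 6 iron genes, which says only that these letters are not there. A match describes the sequence and is no measure of binding.

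Totals ranged from 5930926 to 6503682 adjusted reads per library, where adjusted reads are 2 to the power of the deposited log2 value, minus 1. Within each group replicates differed by far more than sampling noise, with a chi-square per degree of freedom between 6.90 and 18.5 for pairs of libraries. The macrophage label held: all 8 macrophage markers passed the filter, and their summed level was 15711 to 17447 adjusted reads with RANKL alone, 23061 to 23649 with heat-killed MJ2 and 19421 to 21035 with surface proteins. That sum joins markers that went different ways: with RANKL alone, heat-killed MJ2 and surface proteins in turn, Csf1r averaged 9324, 6072 and 3407 adjusted reads and Lyz2 1001, 6080 and 4953. Osteoclast markers, of which 9 of 10 passed, summed to 20914 to 33120 with RANKL alone, 13868 to 16029 with heat-killed MJ2 and 5262 to 7864 with surface proteins. Within that list Mmp9 averaged 1398 adjusted reads with RANKL alone and 1983 with heat-killed MJ2, and Itgb3 32.4 and 42.1, against the direction of the sum but with overlapping libraries. These sums therefore moved with the groups in the comparisons below, and their part in the changes of the iron genes was not tested. In bulk RNA fewer cells of a type and less RNA per cell cannot be told apart. Erythroid markers summed to at most 27.5 adjusted reads in any library, with Hba-a2 and Hbb-b1 at 0. T cell, B cell, epithelial and fibroblast lists summed to at most 3.85, 10.7, 7.34 and 41.8. The neutrophil list summed to at most 0.112 with RANKL alone, 1900 to 2056 with heat-killed MJ2 and 113 to 209 with surface proteins, with 1 of its genes past the filter (S100a8) and Mpo and Elane at 0.

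In surface protein-treated cells the genes of ferritin, ferroportin and 3 of the 4 uptake genes rose against RANKL alone, while the transferrin receptor gene was lower. Of the 10 iron genes, 6 rose by at least 2-fold at an adjusted p under 0.05 by limma and none fell, against 17.5% of the 10874 genes tested called in either direction, 10.2% called higher and 7.32% called lower. Tfrc and Ncoa4 were lower at an adjusted p under 0.05 with a change short of 2-fold, where 13.2% of all genes tested were lower by that rule. The groups did not overlap for 9 of the 10 iron genes, against 48.4% of all genes tested. The median log2 fold change was 1.10 over the 10 iron genes and -0.01 over all genes tested.

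With heat-killed MJ2 both ferritin genes, Slc40a1 and Slc11a1 rose against the same negative control, and Tfrc, Slc11a2 and Slc39a14 did not pass. These 4 of 10 compare with 4.26% of 10814 genes tested called in either direction, 3.37% called higher and 0.897% called lower, and the groups did not overlap for 5 iron genes, against 30.2% of all. Ncoa4 was lower at an adjusted p under 0.05 with a change short of 2-fold, as were 1.84% of all genes tested by that rule in that direction. The count of 4 was 2 without RANKL-alone replicate 3 or without heat-killed MJ2 replicate 3, and 1 (Fth1) without heat-killed MJ2 replicate 1. Since this comparison and the first share the 3 negative control libraries, their values are given side by side and are not independent. Between surface proteins and heat-killed MJ2 directly, Slc11a1 and Slc39a14 were higher and Tfrc lower with surface proteins, 3 of 10, against 10.1% of 10916 genes tested (5.08% higher and 4.97% lower). The groups did not overlap for 6 of the 10, against 42.3% of all. The count of 3 was 1 (Tfrc) without heat-killed MJ2 replicate 3.

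**Figure D1:**
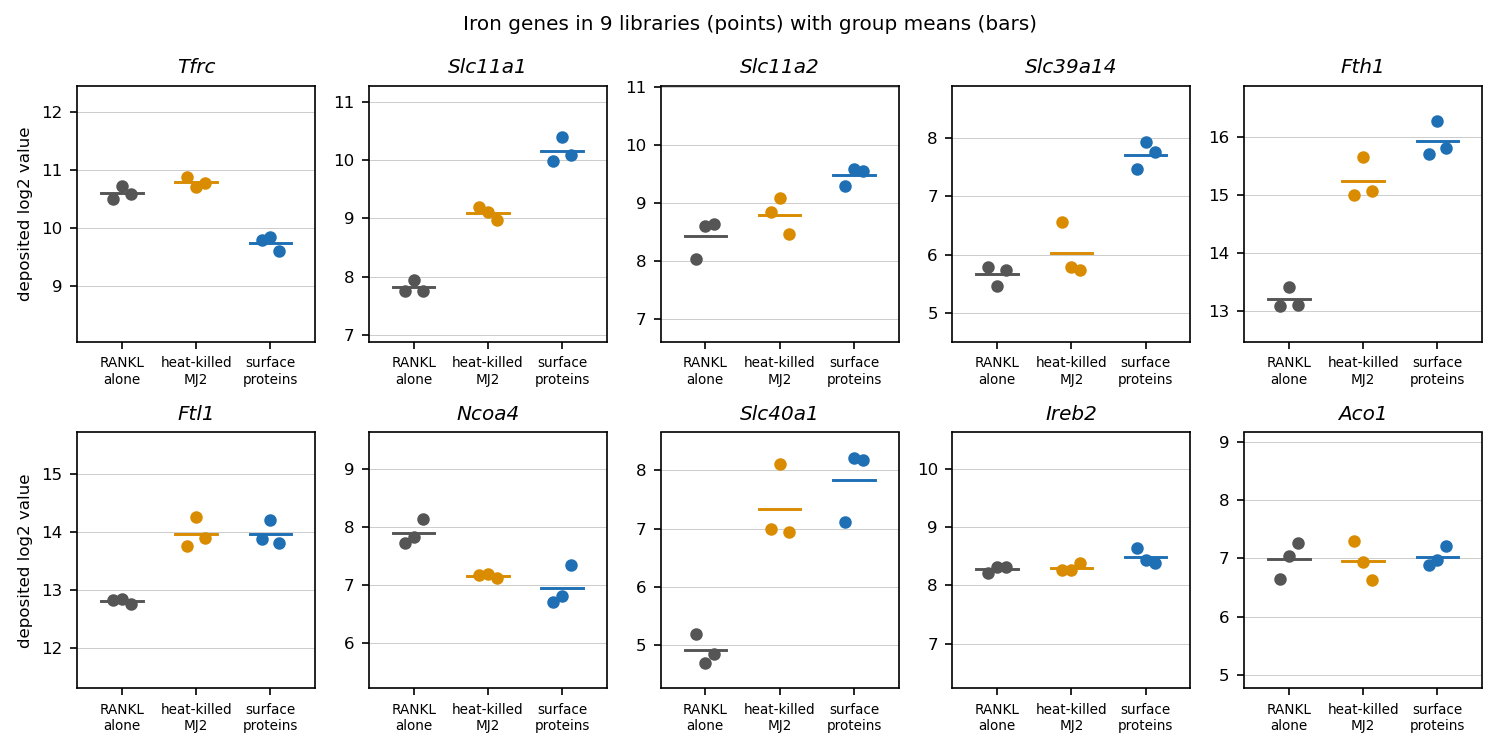
Deposited log2 values (vertical axis, the same span in every panel) of the 10 iron genes in the 3 libraries of each group (points), with the group mean as a bar. For Fth1, Slc11a1 and Slc40a1 every library of both treated groups lies above the 3 libraries of RANKL alone, and for Tfrc the 3 surface protein libraries lie between 9.61 and 9.84, below all others.

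Tfrc (chr16:32608920-32632794, plus strand) encodes the receptor that brings transferrin-bound iron into the cell. Its deposited log2 value was 10.51, 10.74 and 10.60 in the 3 libraries of RANKL alone, 10.89, 10.71 and 10.78 with heat-killed MJ2, and 9.80, 9.84 and 9.61 with surface proteins. The 3 surface protein libraries were the lowest of the 9, and the other groups overlapped. Tfrc was 1.82-fold lower with surface proteins than with RANKL alone (log2 fold change -0.86 ± 0.14 SE, limma adjusted p = 0.00813) and 2.06-fold lower than with heat-killed MJ2 (log2 fold change -1.04 ± 0.14, limma adjusted p = 0.0102). The latter change was just short of 2-fold, at -0.99 without heat-killed MJ2 replicate 1 and at -0.97 without surface protein replicate 3. Between heat-killed MJ2 and RANKL alone the difference was 0.18 on the log2 scale (95% confidence interval -0.15 to 0.50, limma adjusted p = 0.486). With 3 libraries against 3, an exact two-sided permutation test of 1 gene cannot give a p below 0.1, and it gave 0.1 wherever groups did not overlap.

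Slc11a1 (chr1:74375195-74386062, plus strand) encodes NRAMP1, which pumps divalent metals out of the phagosome of macrophages. It stood at 7.75, 7.94 and 7.75 with RANKL alone, 9.21, 9.11 and 8.98 with heat-killed MJ2, and 9.99, 10.41 and 10.10 with surface proteins, on the deposited log2 scale. The 3 groups formed 3 separate steps in that order. It rose 5.10-fold with surface proteins (log2 fold change 2.35 ± 0.16, limma adjusted p = 0.000543) and 2.43-fold with heat-killed MJ2 (1.28 ± 0.14, limma adjusted p = 0.00714), and the 2 treatments differed 2.10-fold (1.07 ± 0.16, limma adjusted p = 0.0137). Without heat-killed MJ2 replicate 1 the second rise missed the threshold (limma adjusted p = 0.0515). The difference between the treatments was under 2-fold without surface protein replicate 2 (log2 fold change 0.95) and with totals set equal (0.99), and its limma adjusted p was 0.0519 without heat-killed MJ2 replicate 3.

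Slc11a2 (chr15:100387898-100425072, minus strand), the gene of the divalent metal transporter DMT1 that moves iron from endosomes into the cytosol, changed less. Its values were 8.04, 8.61 and 8.63 with RANKL alone, 8.84, 9.08 and 8.47 with heat-killed MJ2, and 9.29, 9.58 and 9.54 with surface proteins. All surface protein libraries were above the other 6, while replicate 3 of heat-killed MJ2 lay within the range of RANKL alone. With surface proteins it rose 2.07-fold (log2 fold change 1.05 ± 0.21, limma adjusted p = 0.0146). That call rests on single libraries: the log2 fold change was 0.85 without RANKL-alone replicate 1, and without surface protein replicate 2 it was 0.99 with a limma adjusted p of 0.0519. With totals set equal it was 0.99 as well. Heat-killed MJ2 gave a log2 difference of 0.37 (95% confidence interval -0.21 to 0.95), and the 2 treatments differed by 0.68 (0.20 to 1.16, limma adjusted p = 0.0624).

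Slc39a14 (chr14:70303469-70351425, minus strand) encodes ZIP14, a transporter of iron not bound to transferrin. It was low with RANKL alone, at 5.79, 5.47 and 5.74 (43.2 to 54.3 adjusted reads), and stood at 6.56, 5.79 and 5.73 with heat-killed MJ2. With surface proteins it reached 7.47, 7.93 and 7.76 (176 to 243 adjusted reads), above every other library. The rise was 4.16-fold over RANKL alone (log2 fold change 2.06 ± 0.18, limma adjusted p = 0.00109) and 3.24-fold over heat-killed MJ2 (1.70 ± 0.27, limma adjusted p = 0.0140). The second of these missed the threshold without heat-killed MJ2 replicate 3 (limma adjusted p = 0.0513). Replicate 1 of heat-killed MJ2 stood above the other libraries of its group, which lay within or next to the range of RANKL alone, and the difference between those groups was 0.36 (95% confidence interval -0.26 to 0.98).

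Fth1 (chr19:9980598-9985098, plus strand) encodes the ferritin heavy chain, the subunit that oxidises iron for storage. Its log2 values of 13.09, 13.42 and 13.11 with RANKL alone compared with 15.01, 15.66 and 15.08 with heat-killed MJ2 and 15.71, 16.27 and 15.82 with surface proteins. The groups did not overlap, and replicate 2 was the highest library in each of them. Fth1 rose 6.61-fold with surface proteins (log2 fold change 2.72 ± 0.20, limma adjusted p = 0.000674) and 4.12-fold with heat-killed MJ2 (2.04 ± 0.22, limma adjusted p = 0.00714). Both calls held in all 15 alternatives tried, with log2 fold changes of 2.48 to 2.84 and 1.84 to 2.32. The 2 treatments differed by 0.68 (95% confidence interval 0.09 to 1.27), which did not pass (limma adjusted p = 0.102), and under quantile normalization that difference was 0.16.

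Ftl1 (chr7:45457944-45459884, minus strand), the gene of the ferritin light chain that helps the mineral core form, rose by about the same amount in both treated groups. It was at 12.82, 12.85 and 12.76 with RANKL alone, 13.75, 14.26 and 13.90 with heat-killed MJ2, and 13.88, 14.20 and 13.81 with surface proteins. Every treated library was above the negative control, and the ranges of the treated groups crossed. The rise was 2.23-fold with surface proteins (log2 fold change 1.15 ± 0.16, limma adjusted p = 0.00412) and 2.23-fold with heat-killed MJ2 (1.16 ± 0.17, limma adjusted p = 0.0180). In the latter comparison the limma adjusted p lay between 0.0519 and 0.0706 when replicate 1 or 3 of either group was left out. The direct difference between the treatments was -0.01 on the log2 scale, with a 95% confidence interval of -0.47 to 0.46. Fth1 and Ftl1 have processed pseudogenes in the mouse genome, and how shared reads were counted is not given in the sources used here, so the levels of both are uncertain to that extent.

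Ncoa4 (chr14:32159865-32179855, plus strand) encodes the receptor that carries ferritin to lysosomes, where its iron is freed. It was at 7.73, 7.83 and 8.14 with RANKL alone, 7.18, 7.19 and 7.12 with heat-killed MJ2, and 6.71, 6.81 and 7.35 with surface proteins. All 6 treated libraries were below the negative control, and surface protein replicate 3 lay above all heat-killed MJ2 libraries. The level was 1.92-fold lower with surface proteins (log2 fold change -0.94 ± 0.22, limma adjusted p = 0.0245) and 1.66-fold lower with heat-killed MJ2 (-0.73 ± 0.15, limma adjusted p = 0.0479). Both changes were short of 2-fold. Without RANKL-alone replicate 1 or without surface protein replicate 3 the first of them passed 2-fold, at log2 fold changes of -1.03 and -1.14, while without any 1 of the other 4 libraries its limma adjusted p was 0.0530 to 0.0795. The second is at the edge of the threshold. Its limma adjusted p was 0.0697 to 0.148 when any 1 of the 6 libraries was left out, and 0.0526 to 0.0626 with equal totals, no filter on low values, a constant of 0.1 or a fit over all 9 libraries.

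**Figure D2:**
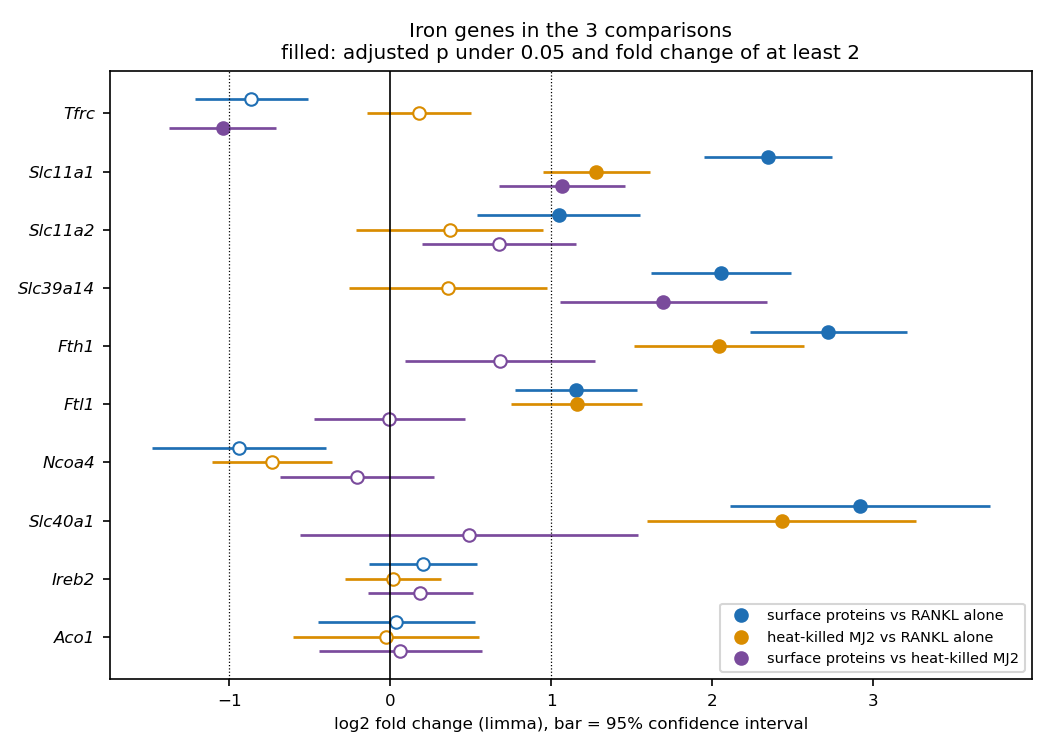
Log2 fold changes by limma (horizontal axis) of the 10 iron genes (vertical axis) in the 3 comparisons, with 95% confidence intervals as bars. Filled points passed an adjusted p of 0.05 with a change of at least 2-fold (dotted lines at -1 and 1): 6 genes with surface proteins, 4 with heat-killed MJ2, and 3 between the treatments.

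Slc40a1 (chr1:45908068-45926523, minus strand) encodes ferroportin, the exporter of iron from cells. It was the lowest of the 10 genes with RANKL alone, at 5.19, 4.70 and 4.84 (24.9 to 35.5 adjusted reads). Heat-killed MJ2 libraries stood at 6.99, 8.10 and 6.94 (122 to 274 adjusted reads), and surface protein libraries at 7.11, 8.21 and 8.18 (137 to 295 adjusted reads). Treated and untreated libraries were well apart, but within the treated groups single libraries differed by more than 2-fold. Its rise of 7.58-fold with surface proteins was the largest of the 10 genes (log2 fold change 2.92 ± 0.33, limma adjusted p = 0.00246), and it held in all 15 alternatives (2.73 to 3.28). The rise of 5.40-fold with heat-killed MJ2 (2.43 ± 0.35, limma adjusted p = 0.0169) was less secure. Its limma adjusted p was 0.0507 to 0.0560 when RANKL-alone replicate 2 or 3 or heat-killed MJ2 replicate 1 or 3 was left out, and 0.0524 with no filter on low values. The treatments differed by 0.49, with a 95% confidence interval of -0.56 to 1.54.

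Ireb2 (chr9:54863789-54912530, plus strand) and Aco1 (chr4:40143081-40198338, plus strand) encode iron regulatory proteins 2 and 1, which bind the hairpins shown above. Ireb2 was at 8.22, 8.32 and 8.31 with RANKL alone, 8.26, 8.27 and 8.38 with heat-killed MJ2, and 8.64, 8.44 and 8.39 with surface proteins. The surface protein libraries were the highest, but by little: the difference from RANKL alone was 0.21 (95% confidence interval -0.13 to 0.54, limma adjusted p = 0.307). Aco1 ranged from 6.63 to 7.30 over the 9 libraries, and its 3 groups overlapped. Its log2 difference from RANKL alone was 0.04 (95% confidence interval -0.45 to 0.53) with surface proteins and -0.03 (-0.60 to 0.55) with heat-killed MJ2, and its sign changed with the scaling.

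The order of the levels within a group also shifted. Reads come from 3′ ends, so values were not divided by length, and an order between genes is on the scale of adjusted reads. With RANKL alone the mean log2 value ran from Fth1 (13.21) through Ftl1 (12.81), Tfrc (10.62), Slc11a2 (8.43), Ireb2 (8.29), Ncoa4 (7.90), Slc11a1 (7.81), Aco1 (6.98) and Slc39a14 (5.66) to Slc40a1 (4.91). Slc11a2 overlapped with Ireb2 and Ncoa4 with Slc11a1 in that order, and the other neighbours did not overlap. With surface proteins Slc11a1 (10.16) stood above Tfrc (9.75) without overlap. Slc40a1 (7.83) and Slc39a14 (7.72) overlapped with each other, as did Aco1 (7.02) and Ncoa4 (6.96), which had lower means. Slc40a1 in surface protein replicate 1 (7.11) was also below Aco1 (7.21) and Ncoa4 (7.35) in replicate 3. Heat-killed MJ2 libraries kept Tfrc (10.79) above Slc11a1 (9.10), which overlapped with Slc11a2 (8.80). In that group Slc40a1 (7.34), Ncoa4 (7.17) and Aco1 (6.96) all overlapped with each other.

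Ferritin mRNA took a larger share of every treated library. Fth1 and Ftl1 together made up 0.257%, 0.298% and 0.256% of adjusted reads with RANKL alone, 0.789%, 1.15% and 0.833% with heat-killed MJ2, and 1.08%, 1.50% and 1.13% with surface proteins. The negative control was below every treated library, and heat-killed MJ2 replicate 2 reached into the range of surface proteins. By rank among all rows Fth1 moved from place 39 to 55 with RANKL alone to place 3 or 4 in every treated library. Ftl1 moved from place 80 to 87 with RANKL alone to place 13 to 19 with heat-killed MJ2 and 15 to 26 with surface proteins.

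The balance between pairs of these genes differed as well, in ratios that were chosen after the values were seen. Fth1 had 1.32 ± 0.149 adjusted reads for each of Ftl1 with RANKL alone, 2.43 ± 0.191 with heat-killed MJ2 and 3.92 ± 0.334 with surface proteins (SD, n = 3 each, exact permutation p = 0.1 for each pair of groups). The 3 ranges, 1.20 to 1.49, 2.26 to 2.64 and 3.54 to 4.19, did not meet. This step between the treatments depends on the scaling, since under quantile normalization they differed by 0.16 for Fth1 and by -0.20 for Ftl1 on the log2 scale. For each adjusted read of Slc40a1 there were 41.1, 68.4 and 55.9 of Tfrc with RANKL alone, 15.1, 6.12 and 14.4 with heat-killed MJ2, and 6.52, 3.11 and 2.70 with surface proteins. Every treated library was below the negative control, and the treated groups overlapped through heat-killed MJ2 replicate 2 and surface protein replicate 1. The ratio of Slc11a1 to Slc11a2 was 0.541 to 0.821 with RANKL alone, 1.02 to 1.43 with heat-killed MJ2 and 1.47 to 1.77 with surface proteins, so that the phagosomal transporter passed the endosomal one in adjusted reads in every treated library.

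**Figure D3:**
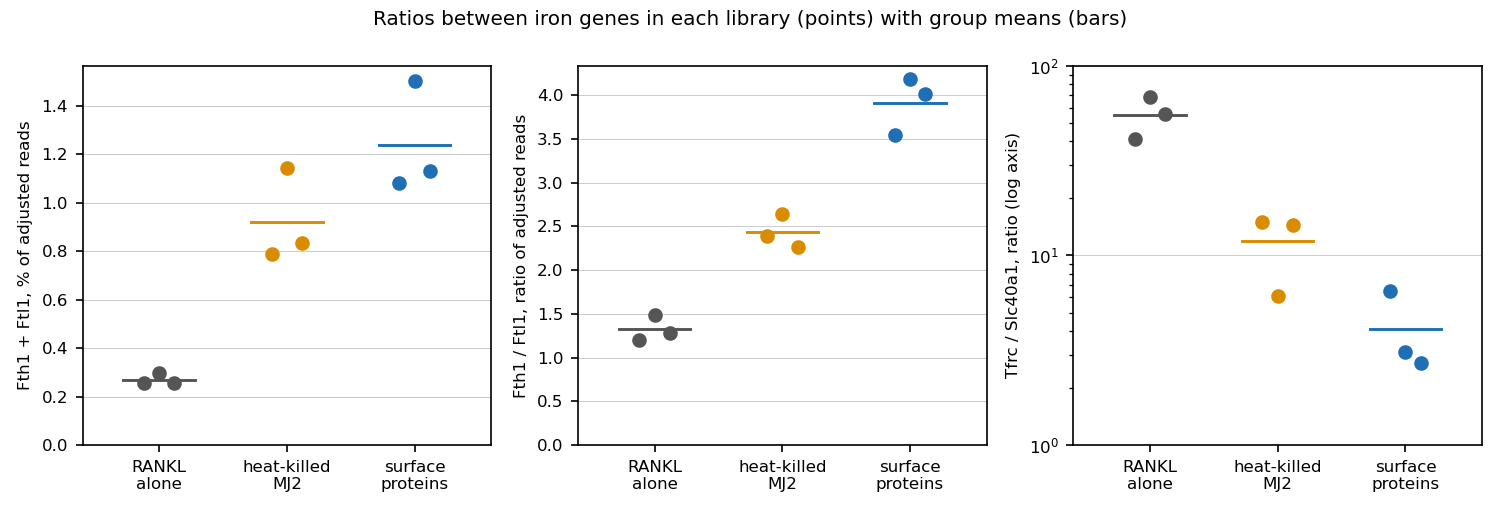
Share of Fth1 and Ftl1 in all adjusted reads (left, %), ratio of Fth1 to Ftl1 (middle) and ratio of Tfrc to Slc40a1 (right, log axis) in each library (points), with group means as bars. In all 3 panels the libraries of RANKL alone are apart from every treated library, and the middle panel shows 3 separate steps with means of 1.32, 2.43 and 3.92.

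Of 78 other genes of iron handling, listed by role, all had a row and 54 were tested with surface proteins against RANKL alone. In that comparison 8 rose and 2 fell, 18.5% of those tested against 17.5% of all genes tested, so the wider list was called about as often as the background. The median log2 fold change was 0.07, with 0.66 over the 18 heme genes tested and -0.39 over the 18 mitochondrial genes. Without surface protein replicate 2 the count was 6. Leaving out a treated library also left Lcn2 with too few libraries past the filter to be tested. With heat-killed MJ2 1 rose and 2 fell of 53 tested (5.66%, against 4.26% of all genes tested, 3.37% higher and 0.897% lower), the limma count was 1 without RANKL-alone replicate 1, and it was 0 when any 1 of the heat-killed MJ2 libraries was left out. Between the treatments 6 were higher with surface proteins and 1 lower of 53 tested (13.2%, against 10.1% of all genes tested, 5.08% higher and 4.97% lower), and the count was 1 without heat-killed MJ2 replicate 1, 2 without its replicate 3, and 4 without surface protein replicate 2 or 3.

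Among the partners of uptake, Lcn2, which binds bacterial siderophores that hold iron, was at or under 0.110 adjusted reads with RANKL alone. It stood at 109, 279 and 95.1 with heat-killed MJ2 and at 1743, 4129 and 1668 with surface proteins. Against a floor of 3 reads per library, its group mean was at least 53.6-fold higher with heat-killed MJ2 and at least 838-fold higher with surface proteins. March8, a ubiquitin ligase that acts on the transferrin receptor, rose 2.42-fold with surface proteins (log2 fold change 1.28 ± 0.14, limma adjusted p = 0.00203). Steap3, the reductase that readies transferrin-derived iron for DMT1, fell 2.13-fold (-1.09 ± 0.25, limma adjusted p = 0.0212). The Steap3 call was lost when RANKL-alone replicate 2 or 3 or surface protein replicate 1 or 2 was left out (log2 fold change -0.94 to -1.04). The other 3 of the 6 tested did not pass. Slc39a8, the gene of the metal importer ZIP8, missed the filter and was not tested. It was at or under 0.0563 adjusted reads with RANKL alone, 1.91 to 2.07 with heat-killed MJ2, and 3.90, 25.2 and 21.5 with surface proteins, so its groups did not overlap, but the first 2 groups are under the floor of 3 reads.

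On the side of export, Cp, the ferroxidase ceruloplasmin that works with ferroportin, stood at 54.3, 40.0 and 2.95 adjusted reads with RANKL alone, 161, 323 and 134 with heat-killed MJ2, and 604, 590 and 486 with surface proteins. The groups did not overlap, and replicate 3 of RANKL alone was far below the other libraries of its group. Cp rose with surface proteins (log2 fold change 4.75 ± 0.97, limma adjusted p = 0.0153). Without that low library the log2 fold change was 3.55, and without surface protein replicate 2 the limma adjusted p was 0.0519. Its change with heat-killed MJ2, 3.21 ± 1.01, did not pass (limma adjusted p = 0.129). Hamp, the gene of the hormone hepcidin that removes ferroportin from the membrane, was at 0 in every library.

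Of the 18 heme genes tested with surface proteins against RANKL alone 3 were called, all higher, which at 16.7% is near the 17.5% of all genes tested. Blvrb, a biliverdin reductase, rose 2.85-fold (log2 fold change 1.51 ± 0.17, limma adjusted p = 0.00230), and Mfsd7b, the heme exporter also known as Flvcr1, rose 2.43-fold (1.28 ± 0.21, limma adjusted p = 0.00738). Hmox1, the oxygenase that frees iron from heme, stood at 76.8, 309 and 90.9 adjusted reads with RANKL alone, 439, 468 and 454 with heat-killed MJ2, and 515, 649 and 594 with surface proteins. Replicate 2 of RANKL alone was thus the high library of its group, still below all treated libraries. Hmox1 rose with surface proteins (2.16 ± 0.52, limma adjusted p = 0.0256), with a log2 fold change of 2.79 without that library, and the call was lost when any other of the 6 libraries was left out (limma adjusted p 0.0529 to 0.0802) or with no filter on low values (0.0631). Alad, an early enzyme of heme synthesis, was lower with surface proteins than with heat-killed MJ2 (-1.32 ± 0.21, limma adjusted p = 0.0148), and the heme-binding Hebp1 was higher (1.45 ± 0.34, limma adjusted p = 0.0348). The Alad call was lost without heat-killed MJ2 replicate 1 or 3 (limma adjusted p 0.0603 and 0.0536). The Hebp1 call was lost without these, without surface protein replicate 2 or 3, with no filter or in a fit over all 9 libraries (limma adjusted p 0.0588 to 0.138).

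The mitochondrial list went both ways. With surface proteins Slc25a37, the importer mitoferrin 1, rose 3.73-fold over RANKL alone (log2 fold change 1.90 ± 0.20, limma adjusted p = 0.00185) and 2.85-fold over heat-killed MJ2 (1.51 ± 0.22, limma adjusted p = 0.0127), the latter lost without heat-killed MJ2 replicate 1 or 3 (limma adjusted p 0.0531 and 0.0503). Lyrm4, a partner of the sulfur donor enzyme Nfs1, rose 3.41-fold over RANKL alone (1.77 ± 0.22, limma adjusted p = 0.00315). Fdxr, which passes electrons to ferredoxin for cluster assembly, fell 2.16-fold (-1.11 ± 0.27, limma adjusted p = 0.0277), a call that was lost when surface protein replicate 2 or 3 or any RANKL-alone library was left out or with no filter on low values, with a log2 fold change of -0.82 without the first of these. At a limma adjusted p under 0.05 whatever the fold change, 6 of the 18 tested were lower than with RANKL alone and 3 higher. Over all genes tested 13.2% were lower by that rule. Short of 2-fold among the lower ones were the scaffold gene Iscu (-0.71), Glrx5 (-0.85) and Abcb10 (-0.97), and not all such genes are named here. With heat-killed MJ2 Fdxr (-1.08 ± 0.20, limma adjusted p = 0.0345) and Iba57 (-1.01 ± 0.15, limma adjusted p = 0.0183), a late assembly factor, fell. The Fdxr call was lost without any 1 of the 6 libraries and with no filter, and the Iba57 call without any 1 of the heat-killed MJ2 libraries, without RANKL-alone replicate 1 and, at a log2 fold change of -0.98, with equal totals. Of the 6 iron sensing genes tested, Fbxl5, the iron-sensing part of a ligase that degrades iron regulatory protein 2, was at an adjusted p under 0.05 with surface proteins but short of 2-fold (0.69 ± 0.17, limma adjusted p = 0.0251), and the other 5 did not pass.

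**Figure D4:**
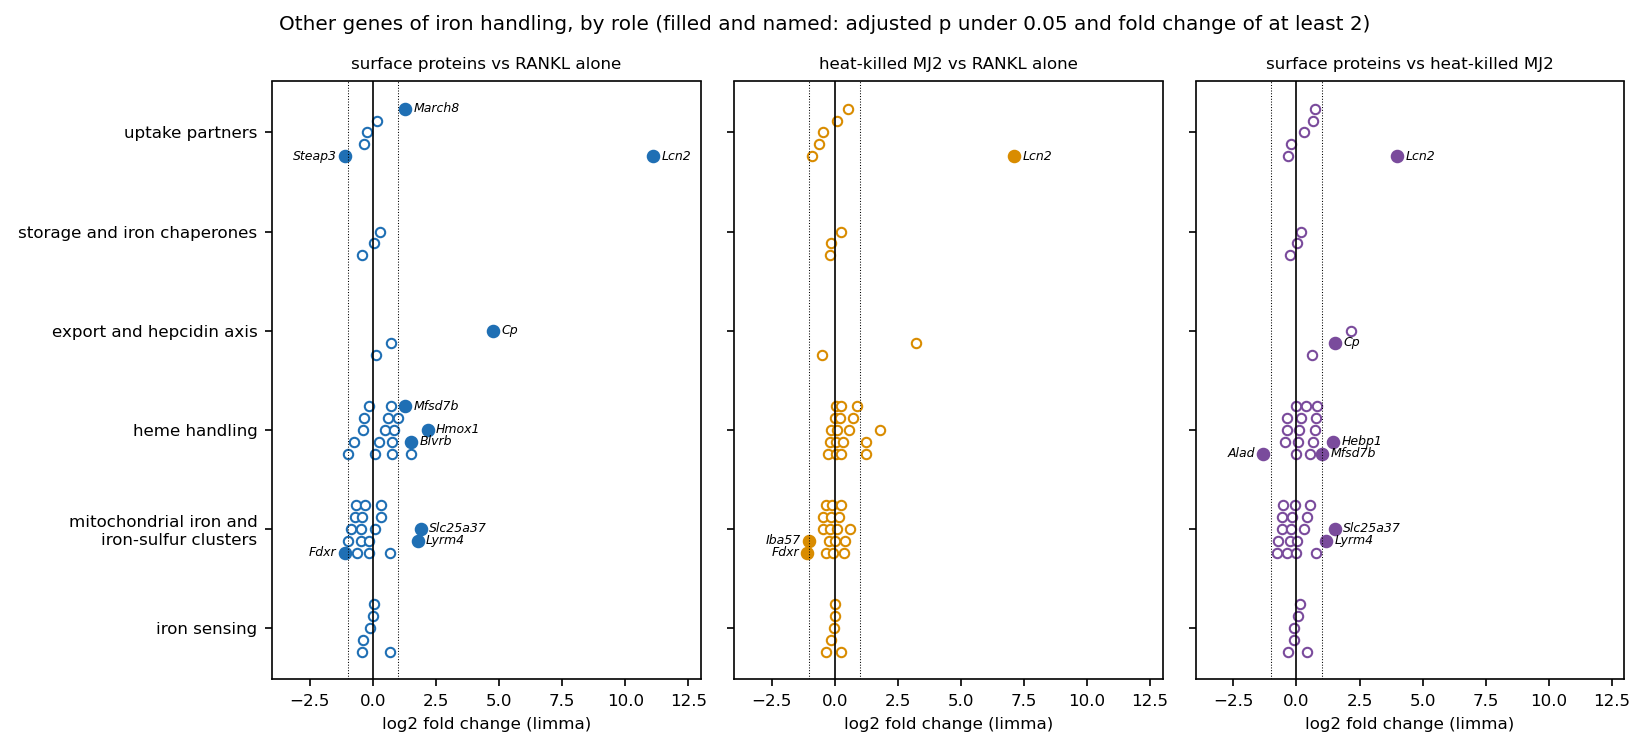
Log2 fold changes by limma (horizontal axis) of the other genes of iron handling that were tested, by role (vertical axis, points spread within a role for legibility), in the 3 comparisons. Filled, named points passed an adjusted p of 0.05 with a change of at least 2-fold (10, 3 and 7 genes); the value of Lcn2 against RANKL alone depends on the constant of 1 inside the log, because that group was at or under 0.110 adjusted reads.

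The genes most like 4 of the iron genes over the 9 libraries were listed by Pearson's r of the deposited log2 values among 11192 other rows past the filter, as a description of libraries that share 3 treatments. Closest to Tfrc were Tonsl (r = 0.986), Nup85 (0.985) and Pold1 (0.979), all lowest with surface proteins. Pold1, the catalytic subunit of DNA polymerase delta, had mean log2 values of 7.72, 7.88 and 5.80 with RANKL alone, heat-killed MJ2 and surface proteins. Fth1 was followed by Ctsl (0.996), which encodes the lysosomal protease cathepsin L, Itgam (0.994), an integrin of the macrophage marker list, and Slfn2 (0.993). Slc11a1 was followed by Ceacam1 (0.996), Ms4a6d (0.994) and Fyb (0.994), and Slc40a1 by Lamc1 (0.986), Ppfibp2 (0.981) and Itgal (0.980), each lowest with RANKL alone and highest with surface proteins.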

How the data were processed

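Sequencing was of mRNA 3′ ends (QuantSeq). The submitters' processing notes name Bowtie2, bedtools and mm10, with versions, annotation and the counting of shared reads not given in the sources used here. The authors deposited 1 log2 value per gene row and library, and per the study's methods quantile normalization was applied, but sorted columns are not identical (differences up to 1.60 on the log2 scale at the same rank), so the exact scaling is unknown. Groups came from the labels.

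For each comparison, rows that reached 10 adjusted reads in 3 or more of its 6 libraries were fitted on the deposited log2 values with limma 3.58.1 in R 4.3.3, p-values were adjusted by Benjamini-Hochberg over all rows tested, and a call needed an adjusted p under 0.05 and a change of at least 2-fold. Scripts were tested on simulated data. Fold changes of low genes are understated by the constant of 1 inside the log. A floor of 3 reads covers counting error only. The iron genes, role lists and marker lists were chosen with earlier results of these data known. Named from the lists were the 5 called genes of largest change per comparison and direction, genes a result turned on, and for 4 iron genes the 3 of highest Pearson's r. Blvrb, Mfsd7b, March8, Iscu, Glrx5, Abcb10, Alas2, Fbxl5, Slc39a8 and Hamp were named outside that rule, after their values were seen. Results for some list genes are not reported here. Alternatives were another scaling, filter, constant or fit, a replicate block, other thresholds and leaving out each library. GENCODE M21 on GRCm38 gave positions and transcripts.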

Additional observations from a re-analysis of the deposited data

How the results depend on the processing

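For the 10 iron genes, 411 of 450 values over 3 comparisons and up to 15 alternatives kept their direction and their call (adjusted p and fold change together), and 17 of 30 did so throughout, although the adjusted p alone crossed 0.05 in some of these. Depth limits Slc40a1 and Slc39a14 most, at 24.9 to 54.3 adjusted reads with RANKL alone. A fit with 2 libraries in a group assumes that they vary like the third. Where a treated library was left out, or 10 adjusted reads were asked of every library, Lcn2 against RANKL alone could not be fitted.

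The log2 difference of Aco1 changed sign with surface proteins against RANKL alone under quantile normalization (-0.0085) and equal totals (-0.014), with heat-killed MJ2 against RANKL alone under equal totals (0.0042), and between the treatments under equal totals (-0.018). Leaving out single libraries gave Aco1 -0.13 to 0.18, -0.20 to 0.14 and -0.10 to 0.23 in these comparisons, Ireb2 -0.020 to 0.041 with heat-killed MJ2, and Ftl1 -0.12 to 0.14 between the treatments. None of these passed in any fit, and the causes were not tested.

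Counts of calls moved as follows. Leaving out single libraries gave 5 to 7 iron genes, 6 to 9 list genes and 1357 to 1822 genes overall with surface proteins against RANKL alone (6, 10 and 1902 as reported). It gave 1 to 4, 0 to 3 and 81 to 347 with heat-killed MJ2 (4, 3 and 461), and 1 to 3, 1 to 7 and 362 to 1176 between the treatments (3, 7 and 1098). Fewer libraries leave fewer degrees of freedom. Without a limit on the fold change, 21 list genes and 3163 genes overall passed in the first comparison and 1949 overall in the last (1098 as reported). With unadjusted p-values 5 list genes and 799 genes overall passed with heat-killed MJ2. Without a filter on low values 267 genes overall passed with heat-killed MJ2 and 4 list genes between the treatments, where more genes enter the adjustment.

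With the replicate number as a replicate block, 2 iron genes, 1 list gene and 289 genes overall passed with heat-killed MJ2, where the calls of Ftl1 and Slc40a1 (limma adjusted p 0.0552 and 0.0644) and of the list genes Fdxr and Iba57 (0.0989 and 0.0764) were lost, as was that of Fdxr with surface proteins (0.0608). Ncoa4, short of 2-fold in any case, had an adjusted p of 0.115. Correlations between libraries of the same number were 0.0179 to 0.106 and every library was closest to its own number, which is a hint from the data, since nothing states a shared culture or day, so the numbers were not taken to pair the samples. Under the block the other counts were 6, 9 and 1813 with surface proteins against RANKL alone and 3, 7 and 980 between the treatments.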
